A study of Homo sapiens with 108 samples.

Results

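The ID proteins (ID1, ID2, ID3 and ID4) and the inhibitory SMADs (SMAD6 and SMAD7) were followed in 6 human melanoma cell lines exposed to 2 Gy of carbon ions or X-rays. The genes were chosen by family, as inhibitory proteins linked to the bone morphogenetic protein (BMP) pathway. Earlier results of these arrays were known when the genes were put together, among them a lower ID1 signal at 3 h after X-rays. Their probes were those that carry 1 of the 6 symbols and no other. There were 10 such probes, for 6 genes of the 18278 genes named on the array: 2 for ID1, 3 for ID2, 1 for ID3, 2 for ID4, 1 for SMAD6 and 1 for SMAD7. All 10 passed the filter on missing and dim spots. A further probe carried a member's symbol together with another gene's and was not used. Because the genes were put together with such results in view, the adjusted p-values below describe the fit over the whole array and are no independent support.

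The study compared HMV-I, Colo679, HMV-II, C32TG, 92-1 and MeWo cells 1 h and 3 h after 2 Gy of carbon ions, 1 h and 3 h after 2 Gy of X-rays, and without irradiation. Each line and beam had its own unirradiated cells (0 Gy), which served as the control for both times of that beam. The 1 h and 3 h changes of a beam therefore share their controls. When these controls were harvested is not stated, so they are not known to match 1 h or 3 h. The part of harvest time in the changes was not tested. Every one of the 36 groups had 3 single-colour whole-genome arrays of total RNA. Nothing in the labels tells if those 3 came from separate cultures, so p-values within a line measure only the spread between these arrays, which may be technical. All 6 are established lines: 92-1 is known as a uveal melanoma line, and HMV-I and HMV-II as lines from vaginal melanoma. Melanocyte genes lay above the level threshold (-0.40 on the log2 scale) for 7 of the 7 genes with a probe in MeWo, C32TG, HMV-II and Colo679, 5 in 92-1 and 3 in HMV-I. In HMV-I the pigment genes MLANA (-1.18), TYR (-0.60) and TYRP1 (-1.41) and the lineage factor SOX10 (-0.79) were below it, and the lineage factor MITF (4.20), the pigment gene PMEL (1.33) and S100B (-0.27) above it. Of 5 fibroblast markers 2 to 4 were above the threshold in a line, of 5 keratinocyte markers 0 to 2, and of 3 leukocyte markers 0 or, in Colo679, 1; their part in the results was not tested.

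BMP ligands bind paired type I and type II receptors, which phosphorylate SMAD1, SMAD5 and SMAD9; these join SMAD4, enter the nucleus and switch on target genes, with ID1, ID2 and ID3 among the most direct. ID proteins are helix-loop-helix proteins without a DNA-binding region. They pair with E proteins (TCF3, TCF4 and TCF12) and keep them off DNA, which delays differentiation, and ID1 is known to hold down the cell-cycle inhibitor gene CDKN2A. SMAD6 and SMAD7 are induced by the same signals and shut the pathway down at the receptors, SMAD6 chiefly in the BMP branch and SMAD7 in both the BMP and the TGF-beta branch.

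The promoters of the ID genes are shown because ID1, ID2, ID3 and ID4 each had a probe called lower at 3 h after carbon ions. Not every probe of ID2 and ID4 was called. SMAD7 was called lower there too, and its windows were searched but are not printed. All 6 genes matched the RefSeq promoter table (GRCh38.p14). Printed here are the 250 bases before the annotated start, 5′ to 3′ on the strand of the gene: ID1 at chr20:31605039-31605288 (plus strand), ID2 at chr2:8681806-8682055 (plus strand), ID3 at chr1:23559502-23559751 (minus strand) and ID4 at chr6:19837120-19837369 (plus strand). Capitals mark matches, on either strand, to a GC-rich BMP-SMAD motif (GGCGCC, which reads the same on both strands), the SMAD-binding element (CAGAC), the core of the cyclic AMP response element (TGACG) and the TATA box (TATAAA).
ID1: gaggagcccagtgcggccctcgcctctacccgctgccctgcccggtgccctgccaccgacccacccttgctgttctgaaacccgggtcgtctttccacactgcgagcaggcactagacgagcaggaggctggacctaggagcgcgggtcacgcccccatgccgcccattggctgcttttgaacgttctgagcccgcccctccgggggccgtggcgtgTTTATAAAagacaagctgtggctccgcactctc
ID2: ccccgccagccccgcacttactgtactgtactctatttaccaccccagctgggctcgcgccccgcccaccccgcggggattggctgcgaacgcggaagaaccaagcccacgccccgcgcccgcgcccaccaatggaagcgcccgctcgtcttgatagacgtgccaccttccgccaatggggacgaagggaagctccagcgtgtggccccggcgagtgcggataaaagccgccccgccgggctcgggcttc
ID3: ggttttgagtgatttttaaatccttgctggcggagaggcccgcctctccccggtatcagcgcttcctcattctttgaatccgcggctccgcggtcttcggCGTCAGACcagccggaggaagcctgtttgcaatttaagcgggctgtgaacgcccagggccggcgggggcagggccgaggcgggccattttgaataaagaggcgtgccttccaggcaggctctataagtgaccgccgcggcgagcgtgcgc
ID4: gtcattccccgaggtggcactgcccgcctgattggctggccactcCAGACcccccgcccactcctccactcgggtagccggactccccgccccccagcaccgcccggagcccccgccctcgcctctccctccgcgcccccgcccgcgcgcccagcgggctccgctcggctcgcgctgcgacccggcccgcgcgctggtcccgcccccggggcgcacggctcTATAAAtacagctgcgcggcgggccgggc
The ID1 window held 2 TATA box matches, on opposite strands and overlapping, that begin at -33 and -31 from the start. The ID4 window held 1 at -29 and a CAGAC at -205. In ID3 a CAGAC at -147 overlapped a TGACG on the other strand at -150. The ID2 window held none of the 4 motifs, and GGCGCC was in none of the windows of the 6 genes. Among 35116 promoter windows of the same length, 10.7% held TATAAA, 38% CAGAC, 21.2% TGACG and 16.4% GGCGCC. A match or its absence describes only the letters of these windows. The windows were rich in G and C, at 66% for ID1, 69.2% for ID2, 62% for ID3 and 78.8% for ID4, against a median of 58% over all windows.

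Without irradiation the lines differed widely in most ID probes and less in the inhibitory SMADs. Levels are log2 of the normalized spot intensity over the 6 unirradiated arrays of a line (both beams; 5 where a spot was missing), described without a test, and probes are not compared with each other in level. ID1 (probe 176003) was highest in HMV-I, with a lowest, median and highest array of 3.20, 3.34 and 3.57, and lowest in MeWo, at -0.13, 0.23 and 0.65. Colo679 (2.01, 2.16 and 2.51), HMV-II (1.75, 2.10 and 2.30), C32TG (1.28, 1.66 and 2.04) and 92-1 (1.24, 1.46 and 1.73) lay between them in that order. HMV-I stood clear of Colo679 and 92-1 of MeWo, while each pair of neighbours in between overlapped, and the means of HMV-I and MeWo were 8.82-fold apart. The other ID1 probe, 321038, gave the same order with a 9.32-fold span.

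ID2, ID3 and ID4 ordered the lines differently from ID1. All 3 ID2 probes put 92-1 first and HMV-II last, at means of 5.12 and 1.83 for probe 476078 (9.78-fold), 3.80 and 0.14 for 150076 (12.6-fold) and 3.37 and 2.00 for 311023 (2.58-fold). ID3 was highest in Colo679 (mean 6.72) and lowest in MeWo (4.0), which differed 6.59-fold. ID4 probe 81062 had the widest range of all members, with a mean of 6.88 in 92-1 and -0.43 in HMV-I. That is 159-fold, but the HMV-I value lies just below the level threshold, so the dim end is not well measured. SMAD6 ran over 2.20-fold, with a mean of 3.60 in HMV-II and 2.46 in C32TG, and SMAD7 over 2.53-fold, with a mean of 1.41 in C32TG and 0.07 in HMV-II.

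**Figure D1:**
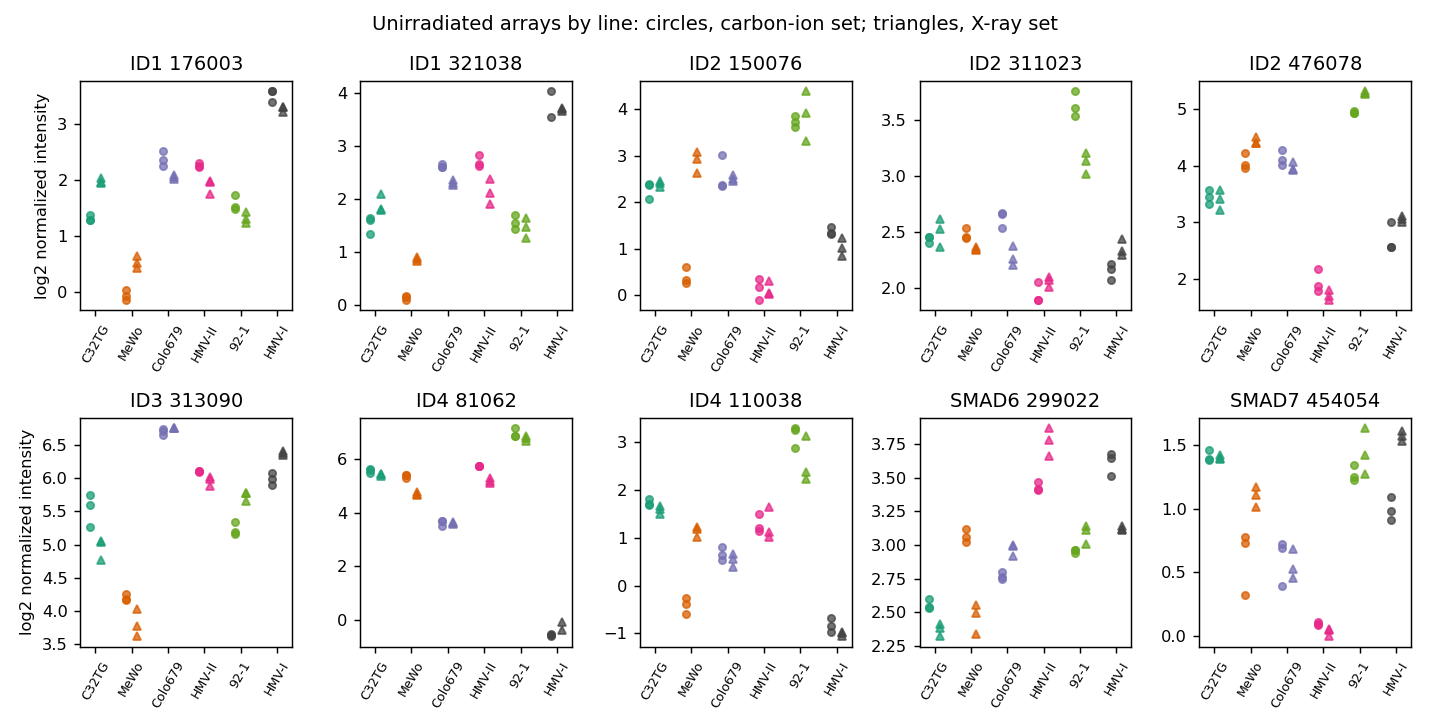
Log2 normalized intensity of each member probe on the unirradiated arrays of each line. Circles are the 3 arrays of the carbon-ion set and triangles those of the X-ray set; each panel has its own axis. ID4 81062 spans 7.31 between the means of 92-1 and HMV-I, and the MeWo circles and triangles stand apart for ID2 150076 and ID4 110038.

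The unirradiated sets of the beams disagreed for some probes, most widely in MeWo. For ID2 probe 150076 in MeWo the carbon-ion set read 0.62, 0.34 and 0.26, against 3.08, 2.93 and 2.63 in the X-ray set, a difference of means of -2.47. The other ID2 probes differed there by -0.37 (476078) and 0.13 (311023), so the gap belonged to 1 probe of 3. ID4 probe 110038 likewise differed by -1.55 in MeWo, with the other ID4 probe, 81062, at 0.65 in the opposite direction. For ID1 the sets differed too, by -0.67 in C32TG and -0.59 in MeWo with probe 176003, and by 0.25 to 0.36 in the other lines. With probe 321038 they differed by -0.73 in MeWo, -0.37 in C32TG and 0.57 in HMV-II, and by 0.09 to 0.32 in the others. Such gaps reach the size of the mean ID1 changes given below. All changes below are therefore taken within a line and beam.

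ID1, the founding member of the family and a direct BMP target, had lower signals 3 h after irradiation with both beams and both probes. Across the 6 lines, ID1 fell at 3 h after X-rays by 0.53 ± 0.35 (probe 176003, adjusted p = 0.0103) and by 0.61 ± 0.37 (321038, adjusted p = 0.00617) on the log2 scale (mean ± SD, n = 6 lines, limma). It was lower in 6 of 6 lines with each probe, at 69.3% and 65.3% of the unirradiated level. At 3 h after carbon ions ID1 fell by 0.62 ± 0.52 (176003, adjusted p = 0.0238, lower in 5 of 6 lines) and by 0.65 ± 0.43 (321038, adjusted p = 0.0109, lower in 6 of 6). The calls after X-rays held under each alternative that kept the probe (321038 has a missing spot and was left out where every value was required); that of probe 176003 after carbon ions was lost without Colo679 (-0.47, adjusted p = 0.0551), HMV-II (-0.56, 0.0751), 92-1 (-0.64, 0.0579) or HMV-I (-0.60, 0.0659). In bulk RNA, fewer cells that express a gene and less RNA per cell cannot be told apart.

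At 1 h ID1 was already lower after carbon ions, by 0.48 ± 0.41 (176003, adjusted p = 0.0258) and 0.41 ± 0.41 (321038, adjusted p = 0.0484), in 5 of 6 lines each. Both 1 h calls were lost without Colo679, HMV-II, 92-1 or HMV-I in turn (adjusted p 0.0520 to 0.143), and 1 of the 2 was lost without C32TG (321038, 0.0575), replicate 1 (321038, 0.0686), replicate 2 (176003, 0.0605) or replicate 3 (321038, 0.138). For X-rays at 1 h the means were -0.32 ± 0.43 (adjusted p = 0.230) and -0.47 ± 0.44 (adjusted p = 0.0838), which did not pass. Over the 24 combinations of line, beam and time, the ID1 probes read below the control in 20 (176003) and 22 (321038), and their changes correlated with each other at r = 0.943 over those 24 values, which share arrays, controls and scaling.

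The array values of ID1 probe 176003 show which lines carried the fall. In HMV-I, X-rays gave 2.46, 2.29 and 2.07 at 1 h and 2.17, 2.24 and 2.14 at 3 h, against 3.29, 3.30 and 3.20 in unirradiated cells. Carbon ions gave 2.79, 2.58 and 2.69 at 1 h and 2.76, 2.81 and 2.86 at 3 h in HMV-I, against 3.57, 3.38 and 3.57 in unirradiated cells. All 12 irradiated HMV-I arrays were below all 6 unirradiated ones. The change was -0.99 (SE 0.09, adjusted p = 3.17e-06 within the line) and -1.08 (adjusted p = 3.47e-07) at 1 h and 3 h after X-rays, or 50.3% and 47.3% of the control. After carbon ions it was -0.82 (adjusted p = 2.64e-05) and -0.69 (adjusted p = 6.31e-05).

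In Colo679 the beams differed at 1 h. Carbon ions gave 1.46, 1.45 and 1.56 at 1 h and 1.01, 1.04 and 0.96 at 3 h, against 2.35, 2.25 and 2.51 in unirradiated cells. X-rays gave 2.43, 2.12 and 2.15 at 1 h and 1.31, 1.39 and 1.37 at 3 h, against 2.01, 2.08 and 2.05 in unirradiated cells. The 1 h arrays after X-rays were all above their controls and the 3 h arrays all below, whereas after carbon ions both times were below. The 3 h change after carbon ions, -1.36 (SE 0.08, adjusted p = 1.01e-08), left 38.9% of the control and was the largest fall of the 24 with this probe; probe 321038 gave -1.31 (40.4%). At 1 h after X-rays the change of 0.19 did not pass (adjusted p = 0.292), and probe 321038 gave -0.11.

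HMV-II showed its larger falls after carbon ions, with 1.27, 1.52 and 1.61 at 1 h and 1.41, 1.32 and 1.38 at 3 h, against 2.30, 2.22 and 2.25 in unirradiated cells. After X-rays it gave 1.36, 1.41 and 1.55 at 1 h and 1.64, 1.82 and 1.54 at 3 h, against 1.75, 1.96 and 1.98 in unirradiated cells. After X-rays the 1 h arrays were all below their controls without passing (-0.46, adjusted p = 0.0700) and the 3 h arrays overlapped them (-0.23, adjusted p = 0.164), while the carbon-ion changes were -0.79 (adjusted p = 0.000183) and -0.89 (adjusted p = 2.74e-05). C32TG after X-rays gave 1.53, 1.48 and 1.5 at 1 h and 1.21, 1.24 and 1.35 at 3 h, against 1.96, 2.04 and 1.95 in unirradiated cells. C32TG after carbon ions gave 1.31, 1.25 and 1.17 at 1 h and 0.97, 0.92 and 0.73 at 3 h, against 1.28, 1.28 and 1.37 in unirradiated cells. In C32TG only the 1 h arrays after carbon ions overlapped their controls, and the other changes passed: -0.48 and -0.72 after X-rays (adjusted p = 0.000136 and 7.99e-07) and -0.44 at 3 h after carbon ions (adjusted p = 0.000303).

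In 92-1 ID1 passed after carbon ions only, and in MeWo after neither beam. Carbon ions gave 1.28, 1.28 and 0.98 at 1 h and 1.08, 1.16 and 0.99 at 3 h in 92-1, against 1.73, 1.51 and 1.48 in unirradiated cells. X-rays gave 1.37, 1.46 and 1.32 at 1 h and 1.13, 1.12 and 1.06 at 3 h in 92-1, against 1.30, 1.24 and 1.43 in unirradiated cells. With probe 176003 both times after carbon ions passed in 92-1 (-0.40 and -0.50, adjusted p = 0.0261 and 0.00469); after X-rays neither did (0.06 and -0.22, adjusted p = 0.809 and 0.194). Probe 321038 did not pass in 92-1 in any of the 4 comparisons. In MeWo, carbon ions gave 0.18, -0.25 and 0.11 at 1 h and 0.36, -0.04 and 0.07 at 3 h, against -0.13, 0.04 and -0.07 in unirradiated cells. X-rays gave 0.35, 0.22 and 0.30 at 1 h and 0.19, 0.46 and 0.22 at 3 h in MeWo, against 0.52, 0.43 and 0.65 in unirradiated cells. In MeWo, the line with the least ID1, no ID1 probe passed in any of the 4 comparisons. After 3 h HMV-I still had the highest and MeWo the lowest ID1 signal with each probe and beam; with probe 176003 the gap between their means was 2.68 with carbon ions, against 3.56 in that beam's unirradiated cells, and 1.89 with X-rays, against 2.73 in theirs.

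**Figure D2:**
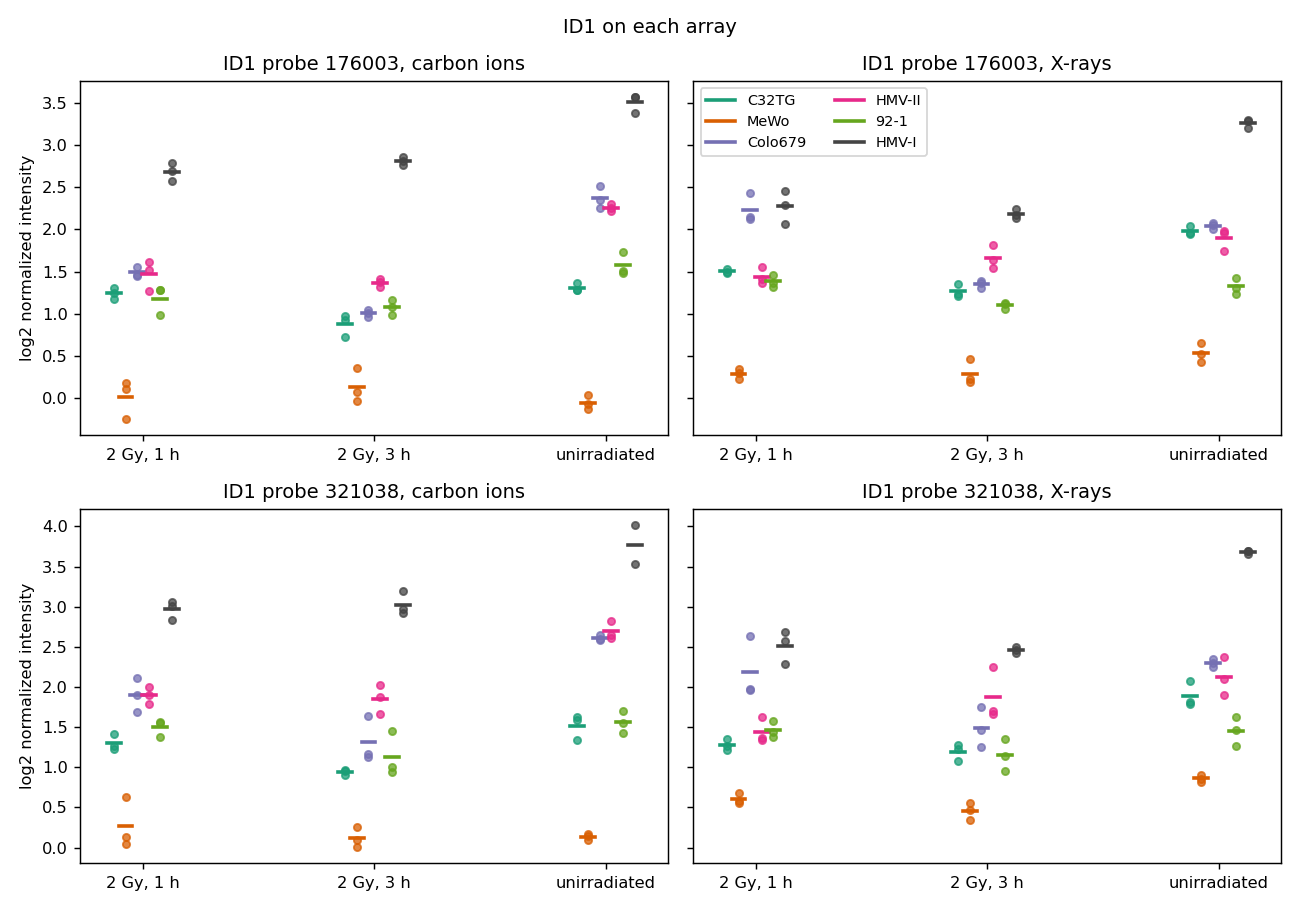
Log2 normalized intensity of both ID1 probes on every array, at 1 h and 3 h after 2 Gy and in unirradiated cells of the same beam. Points are arrays, short bars group means and colours lines. HMV-I falls by 1.08 at 3 h after X-rays and Colo679 by 1.36 at 3 h after carbon ions with probe 176003, while MeWo stays low throughout.

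ID2, which binds E proteins as ID1 does, fell at 3 h with 1 of its 3 probes, and the 3 gave different values. Probe 150076 fell at 3 h after carbon ions by 0.71 ± 0.41 (adjusted p = 0.00631, lower in 5 of 6 lines, 61% of the control), and at 3 h after X-rays by 0.35 ± 0.33 (adjusted p = 0.0499, lower in 5 of 6). The call after X-rays sits at the threshold: it was lost without MeWo (-0.35), Colo679 (-0.25), HMV-II (-0.31) or 92-1 (-0.33), with adjusted p between 0.105 and 0.155, and without any 1 replicate number (0.0512 to 0.0886). Probe 476078 gave -0.40 ± 0.42 at 3 h after carbon ions (adjusted p = 0.0541) and -0.19 ± 0.38 after X-rays (adjusted p = 0.337). Probe 311023 gave -0.14 ± 0.35 (adjusted p = 0.399) and -0.05 ± 0.08 (adjusted p = 0.636). Probes 150076 and 476078 changed alike over the 24 combinations (r = 0.779), and 311023 less so with either (r = 0.173 and 0.211).

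At 3 h after carbon ions, MeWo had -0.66, -0.68 and -0.43 with probe 150076, against 0.62, 0.34 and 0.26 in unirradiated cells. Colo679 had 1.82, 1.40 and 1.65, against 3.02, 2.38 and 2.36 in unirradiated cells. 92-1 had 3.07, 2.96 and 2.57, against 3.72, 3.86 and 3.62 in unirradiated cells. In these lines, and in HMV-II and HMV-I, no irradiated array reached the lowest control, and the changes were -1.0, -0.96, -0.87, -0.68 and -0.87 in MeWo, Colo679, 92-1, HMV-II and HMV-I. The irradiated means in MeWo (-0.59) and HMV-II (-0.53) lie below the level threshold, so the sizes there are not well measured. C32TG was the exception, with 2.45, 2.32 and 2.35 against 2.4, 2.37 and 2.06 in unirradiated cells (change 0.09). In MeWo probe 311023 moved the other way, with 2.80, 2.88 and 2.87 at 3 h after carbon ions against 2.54, 2.45 and 2.46 in unirradiated cells (0.37, adjusted p = 0.000259).

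At 1 h ID2 went both ways between lines and probes. In C32TG, probe 476078 had 3.97, 3.92 and 3.88 at 1 h after carbon ions, against 3.57, 3.45 and 3.32 in unirradiated cells, a rise of 0.47 (SE 0.09, adjusted p = 0.00186). Probe 150076 rose in C32TG too, by 0.33 after carbon ions (adjusted p = 0.0212) and by 0.39 after X-rays (adjusted p = 0.00858). In Colo679, probe 311023 had 2.96, 2.89 and 2.90 at 1 h after X-rays, against 2.38, 2.21 and 2.26 in unirradiated cells, a rise of 0.63 (adjusted p = 0.000104). Probe 311023 also rose by 0.63 in MeWo at 1 h after carbon ions (adjusted p = 2.15e-06), where probe 150076 fell by 0.56 (adjusted p = 0.00844). In 92-1 probe 311023 fell by 0.67 at 1 h (adjusted p = 0.000831) and by 0.60 at 3 h (adjusted p = 0.00101) after carbon ions. Across lines probe 476078 was above the control in 6 of 6 lines at 1 h after X-rays, at 0.19 ± 0.09, without passing (adjusted p = 0.0641). With the beams averaged, ID2 signals fell from the 1 h to the 3 h samples by 0.51 ± 0.32 (150076, adjusted p = 0.0141) and by 0.40 ± 0.32 (476078, adjusted p = 0.0349), each in 6 of 6 lines.

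ID3, also a direct BMP target, fell across lines at 3 h after carbon ions by 0.32 ± 0.21 (adjusted p = 0.0182, lower in 5 of 6 lines). The call was lost with median centring (-0.24, adjusted p = 0.0796), with the values as deposited (-0.23, 0.0842), without Colo679 (-0.28, 0.0606), without HMV-II (-0.30, 0.0599) and without replicate 1 (-0.31, 0.0520). After X-rays it gave -0.06 ± 0.25 at 3 h (adjusted p = 0.717), with Colo679 alone below its control. Colo679 had 6.35, 6.05 and 6.15 at 3 h after carbon ions, against 6.73, 6.65 and 6.71 in unirradiated cells. After X-rays it had 6.10, 6.16 and 6.33 at 3 h, against 6.75, 6.75 and 6.75 in unirradiated cells. Neither beam's 3 h arrays overlapped their controls in Colo679, and the changes were -0.51 (adjusted p = 0.00631) and -0.55 (adjusted p = 0.00349). In HMV-I ID3 gave 0.06 and 0.10 at 3 h and did not pass.

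ID4, the family member best known from neural progenitors, fell with probe 110038 at 3 h after carbon ions by 0.48 ± 0.35 (adjusted p = 0.0174) and after X-rays by 0.37 ± 0.29 (adjusted p = 0.0243, lower in 6 of 6 lines). The first call was lost without Colo679 (-0.46, adjusted p = 0.0530), HMV-II (-0.41, 0.0578) or 92-1 (-0.42, 0.0597), and the second without MeWo (-0.39, 0.0571), HMV-I (-0.35, 0.0547) or replicate 1 (-0.32, 0.0626). The other probe, 81062, gave -0.17 ± 0.11 after carbon ions, lower in 6 of 6 lines without passing (adjusted p = 0.0510), and -0.09 ± 0.22 after X-rays (adjusted p = 0.492). HMV-II had 0.67, 0.32 and 0.25 with probe 110038 at 3 h after carbon ions, against 1.49, 1.13 and 1.20 in unirradiated cells. After X-rays it had 0.57, 0.45 and 0.08 at 3 h, against 1.64, 1.01 and 1.11 in unirradiated cells. All 6 irradiated arrays were below the controls of their beam (-0.86 and -0.89, adjusted p = 0.0177 and 0.0331), whereas probe 81062 gave -0.10 and 0.11 in HMV-II. In HMV-I all groups of probe 110038 lie below the level threshold (-1.52 at 3 h after X-rays from 2 arrays, against -1.01 in unirradiated cells), as do those of MeWo after carbon ions (-0.86 at 3 h, against -0.41 in unirradiated cells), so the line counts include changes between signals that are not well measured; the probe was kept on its mean over all lines. In Colo679 probe 81062 rose at 3 h after X-rays by 0.24 (adjusted p = 0.0458), with all 3 arrays above the controls. From the 1 h to the 3 h samples both fell, by 0.34 ± 0.12 (110038, adjusted p = 0.00392) and by 0.22 ± 0.16 (81062, adjusted p = 0.0368), in 6 of 6 lines.

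Of the inhibitory SMADs, SMAD7 passed across lines at 3 h after carbon ions and SMAD6 in no comparison. SMAD7 was lower in 6 of 6 lines at 3 h after carbon ions and fell by 0.24 ± 0.15 (adjusted p = 0.0289), with -0.16 ± 0.09 at 1 h, also in 6 of 6 lines (adjusted p = 0.0520). The 3 h call was lost without MeWo (-0.23, adjusted p = 0.0575), Colo679 (-0.20, 0.0828), HMV-II (-0.26, 0.0543), 92-1 (-0.24, 0.0816) or replicate 1 (-0.20, 0.0903). After X-rays SMAD7 gave -0.10 ± 0.08 at 1 h (adjusted p = 0.359) and -0.09 ± 0.18 at 3 h (adjusted p = 0.463). Colo679 had 0.15, 0.19 and 0.01 at 3 h after carbon ions, against 0.72, 0.69 and 0.39 in unirradiated cells, a change of -0.48 (adjusted p = 0.00362). It was the only line where SMAD7 passed within the line, of the 5 in which it could be tested.

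SMAD6 had means between -0.08 and 0.00 in the 4 comparisons, and none passed (adjusted p 0.401 to 0.993, limma). Its 95% intervals ran from -0.21 to 0.05 at 3 h after carbon ions and from -0.15 to 0.16 at 3 h after X-rays. Single lines went both ways at 3 h. In Colo679 it had 3.37, 3.17 and 3.33 at 3 h after X-rays, against 2.99, 2.92 and 3.00 in unirradiated cells, a rise of 0.32 (adjusted p = 0.00747). In 92-1 it had 2.76, 2.53 and 2.66 at 3 h after carbon ions, against 2.96, 2.96 and 2.94 in unirradiated cells, a change of -0.30 (adjusted p = 0.0237). C32TG was lower at 3 h after X-rays (-0.21, adjusted p = 0.0243).

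**Figure D3:**
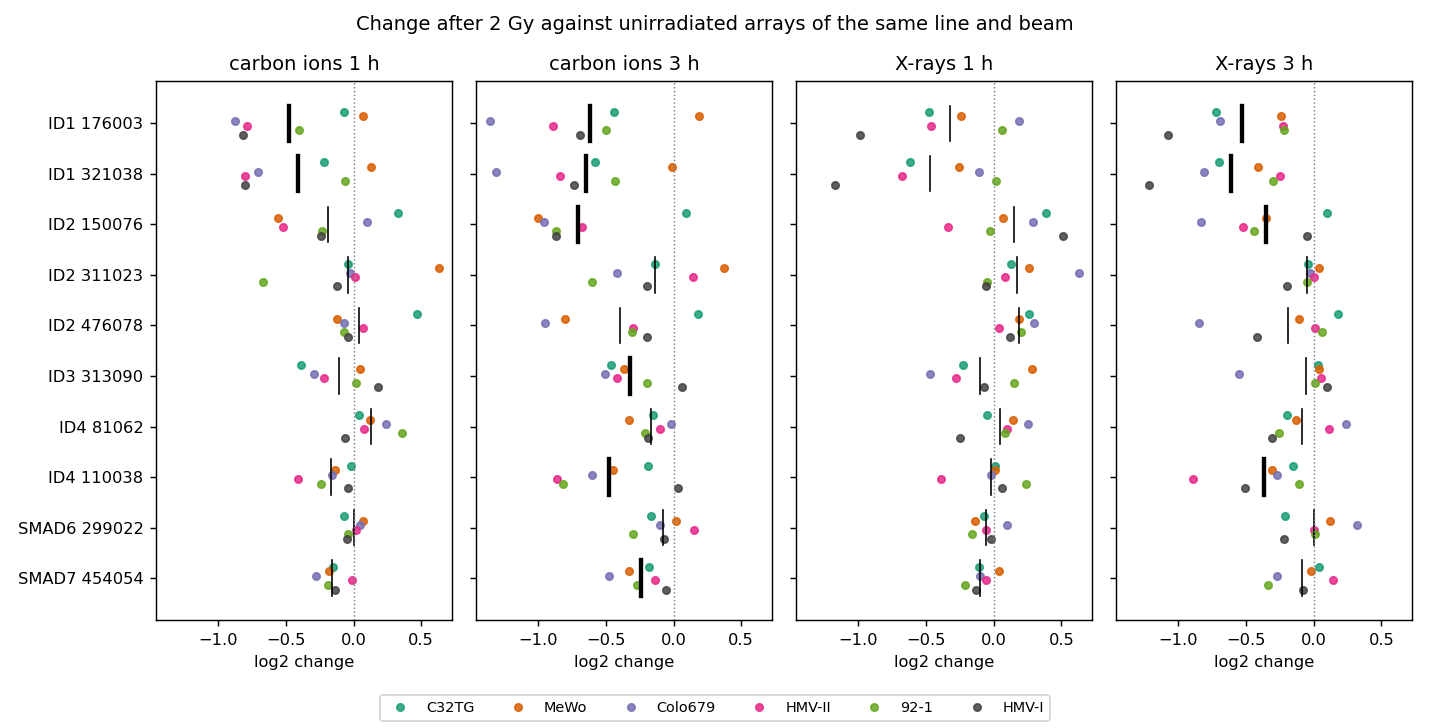
Log2 change of each member probe after 2 Gy against the controls of that line and beam, in 4 panels by beam and time. Points are lines and vertical bars the mean of the 6 lines, thick where adjusted p was at most 0.05. All 10 means lie below 0 at 3 h after carbon ions, where Colo679 has the largest ID1 fall (-1.36).

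Counted over the set, 2 of the 10 probes were called lower across lines at 1 h after carbon ions (both ID1), where 5.95% of the 32063 probes tested were lower and 4.76% higher. By 3 h after carbon ions 6 were called lower, for 5 genes, where 6.89% of all probes were lower and 6.5% higher. For X-rays at 1 h limma called 0 of the 10 (4 at an unadjusted p under 0.05), where 0.908% were lower and 0.393% higher. Of the 32063 probes, 4428 had an unadjusted p under 0.05 there. By 3 h after X-rays 4 were called lower, for 3 genes, where 4.3% were lower and 2.83% higher. No member probe was called higher in these 4 comparisons, although ID4 probe 81062 passed as higher at 1 h after carbon ions with the values as deposited (0.17, adjusted p = 0.0409). The 10 probes had a median change of -0.13 (1 h) and -0.36 (3 h) with carbon ions, and of -0.04 (1 h) and -0.14 (3 h) with X-rays, where the medians over all probes were 0.00451, 0.00301, 0.00471 and 0.000677. The members were chosen with these comparisons known, so nothing is read from these counts.

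The balance of calls over the whole array depended on the scaling, which bears on those percentages. Of all calls at 3 h after carbon ions, 51.5% were lower after quantile normalization, but 75% when arrays were centred on their medians and 62% when the deposited values were used. For X-rays at 3 h the shares were 60.4%, 80.1% and 75.5%, at 1 h after carbon ions 55.6%, 83.4% and 49.2%, and at 1 h after X-rays 69.8%, 83.3% and 68.2%. The members' calls at 3 h were all lower under the 3 scalings, at 6, 6 and 5 probes after carbon ions and 4, 3 and 4 after X-rays.

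Within single lines, 55 of the 60 pairs of probe and line could be tested, the others having a missing spot. At 1 h after carbon ions 8 pairs were lower and 3 higher, where 3.34% of all pairs on the array were lower; at 3 h after carbon ions 28 were lower and 1 higher, where 6.72% were lower. At 1 h after X-rays 3 pairs were lower and 2 higher, where 1.21% of all pairs were lower; at 3 h 10 were lower and 2 higher, where 4.44% were lower. The share of all pairs called higher was not worked out, so no balance of lower and higher calls is read from these counts. Over the 4 comparisons the lower calls were 15 of 40 in Colo679, 8 of 40 in C32TG, 8 of 40 in 92-1, 8 of 36 in HMV-II, 5 of 36 in MeWo and 5 of 28 in HMV-I. Of all tests on the array, 5.02% were lower in Colo679, 5.09% in C32TG, 2.29% in 92-1, 1.61% in HMV-II, 5.28% in MeWo and 4.17% in HMV-I. Whether the change differed between lines was tested with a moderated F over all arrays, which 9 of the 10 member probes passed, where 34.3% of all probes did. This F sets the lines against the spread between the 3 arrays of a group, which may be technical. ID1 probe 176003 (F = 18.6, adjusted p = 2.61e-19) and ID2 probe 311023 (F = 17.1, adjusted p = 3.02e-18) ranked 35 and 39 among the 32063 probes. SMAD7 did not pass (adjusted p = 0.0619).

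No member passed the test of a difference between carbon ions and X-rays across the 6 lines. In the difference of the changes, limma called 0 of the 10 probes at 1 h and 0 at 3 h, with 2 at each time at an unadjusted p under 0.05, and 0% of all probes at either time, with 2399 and 1420 at an unadjusted p under 0.05. For ID1 the 3 h difference, carbon ions minus X-rays, was -0.09 (95% interval -0.40 to 0.23) and -0.04 (-0.32 to 0.24), for probes 176003 and 321038. ID1 fell further after carbon ions in Colo679 (-0.68 and -0.49), HMV-II (-0.66 and -0.59) and 92-1 (-0.28 and -0.13), and less in HMV-I (0.38 and 0.47) and C32TG (0.28 and 0.12). In MeWo the difference was 0.43 and 0.40. There ID1 changed by 0.19 and -0.01 after carbon ions and by -0.24 and -0.41 after X-rays. ID2 probe 150076 differed by -0.37 at 3 h (-0.59 to -0.15, unadjusted p = 0.00331, adjusted p = 1) and ID3 by -0.26 (-0.44 to -0.09, unadjusted p = 0.00693, adjusted p = 1). Each beam had its own control arrays, so a difference between the control sets enters these values with its sign reversed. For ID1 probe 176003 the control sets differed by -0.67 in C32TG, -0.59 in MeWo, 0.36 in HMV-II, 0.32 in Colo679, 0.26 in 92-1 and 0.25 in HMV-I. In all lines but HMV-I that sign was opposite to the sign of the ID1 difference at 3 h, which the subtraction favours by itself. The part of the control sets was not tested.

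**Figure D4:**
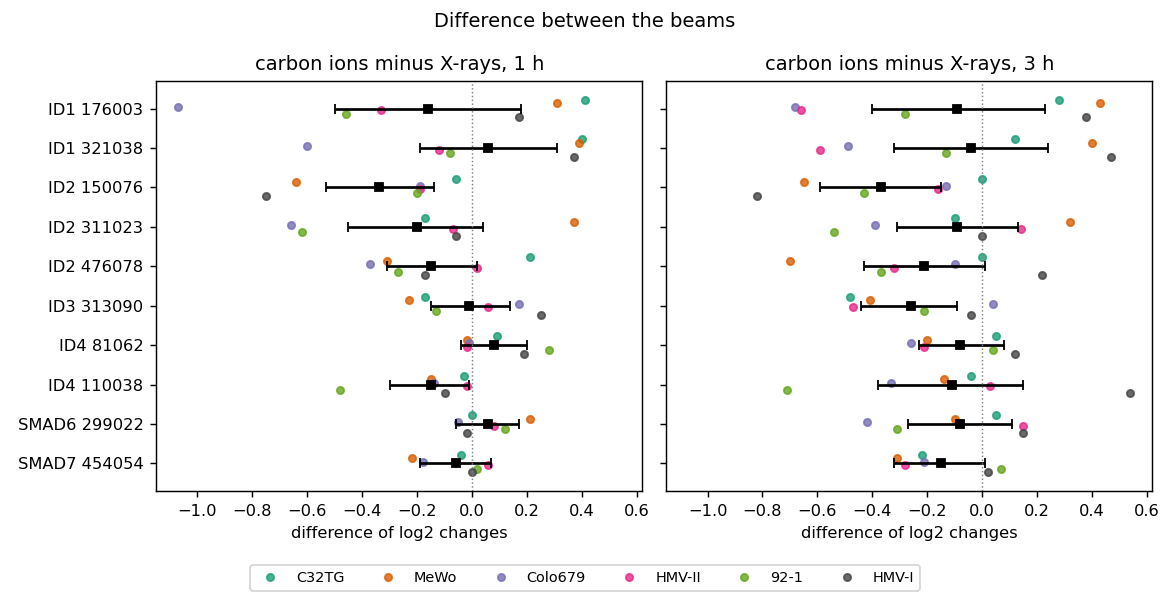
Difference of the log2 changes, carbon ions minus X-rays, at 1 h and 3 h. Points are lines, squares the mean of 6 lines and bars its 95% interval from limma. ID1 points lie on both sides of 0, at 3 h between -0.68 and 0.43 for probe 176003.

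ID2 and ID4 differed between the 3 h and the 1 h samples. Controls matched to each time are not known, so the part of harvest time in this difference was not tested. With the beams averaged, 4 of the 10 probes were called lower, both ID4 probes and ID2 probes 150076 and 476078, where 2.11% of all probes were lower. The calls of 476078 and 81062 were both lost with median centring (adjusted p = 0.0509 and 0.0920) and without MeWo (0.0879 and 0.0996). That of 476078 was also lost without HMV-II (0.0546), HMV-I (0.0677) or replicate 3 (0.0567), and that of 81062 without C32TG (0.0657), Colo679 (0.0647), 92-1 (0.0756) or replicate 1 (0.0680), and with missing spots left out of the ranking (0.0507). ID1 changed by -0.17 ± 0.29 (adjusted p = 0.259) and -0.19 ± 0.29 (adjusted p = 0.209) over that interval, ID2 probe 311023 by -0.16 (adjusted p = 0.180), ID3 by -0.08, SMAD6 by -0.01 and SMAD7 by -0.04, and none of these passed. For ID1 this difference was 0.02 and 0.00 in HMV-I and 0.07 and 0.19 in HMV-II, but -0.68 and -0.65 in Colo679.

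Other genes of the pathway had medians near 0. Of 58 listed genes, 44 had a usable probe, and each was read from its probe of highest mean. By 3 h after carbon ions 8 were higher and 3 lower, with a median of 0.01, where 6.5% of all probes were higher and 6.89% lower. By 3 h after X-rays 1 was higher and 3 lower, with a median of 0.02, where 2.83% were higher and 4.3% lower. At 1 h after carbon ions 1 was higher, where 4.76% of all probes were higher and 5.95% lower. For X-rays at 1 h limma called 0 (2 at an unadjusted p under 0.05), where 0.393% were higher and 0.908% lower. Of the 32063 probes, 4428 had an unadjusted p under 0.05 there. The lists were drawn up with earlier results known.

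Among ligands, BMP4 rose at 3 h after carbon ions by 0.28 ± 0.17 (adjusted p = 0.0201), and the other 7 measured did not pass. Among receptors, the activin type I receptor gene ACVR1B rose by 0.17 ± 0.05 (adjusted p = 0.0291), with its other probe at 0.15 (adjusted p = 0.0887), and the other 7 did not pass with the probe of highest mean. A second probe of the activin receptor gene ACVR2B (17015) did pass, at 0.26 after carbon ions (adjusted p = 0.0146) and 0.25 after X-rays (adjusted p = 0.0142) at 3 h, with 0.02 and 0.12 from the probe of highest mean. Of the 6 SMAD transducers SMAD4, the shared partner, rose at 1 h (0.15 ± 0.07, adjusted p = 0.0291) and 3 h (0.26 ± 0.11, adjusted p = 0.0105) after carbon ions, but its second probe gave -0.09 at 3 h (adjusted p = 0.422). SMAD1 (0.02), SMAD5 (-0.08) and SMAD9 (0.07), which carry the BMP signal, did not pass at 3 h after carbon ions. After carbon ions second probes passed for SMAD5 at 1 h (278080, 0.20, adjusted p = 0.0114) and SMAD2 at 3 h (352082, 0.18, adjusted p = 0.0318), where those of highest mean gave -0.09 and 0.03. Of 10 antagonists and negative regulators, 3 rose at 3 h after carbon ions: FST, a secreted activin trap, by 0.29 ± 0.19 (adjusted p = 0.0192), PMEPA1, a TGF-beta-induced feedback inhibitor, by 0.34 ± 0.20 (adjusted p = 0.0132), and SMURF1, a ubiquitin ligase for SMADs, by 0.17 ± 0.09 (adjusted p = 0.0464). The second PMEPA1 probe also passed (0.29, adjusted p = 0.0380) and the second FST probe did not (0.21, adjusted p = 0.119).

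Other targets of the pathway split. The BMP-induced homeobox genes MSX1 and MSX2 rose at 3 h after carbon ions by 0.32 ± 0.15 (adjusted p = 0.00855) and 0.36 ± 0.15 (adjusted p = 0.00564), each in 6 of 6 lines. MSX2 also rose at 3 h after X-rays, by 0.30 ± 0.19 (adjusted p = 0.0195, 5 of 6 lines). The TGF-beta early response gene KLF10 fell at 3 h after carbon ions, by 0.75 ± 0.30 (adjusted p = 0.00214), and after X-rays, by 0.55 ± 0.24 (adjusted p = 0.00275). CCN2, a matrix-associated growth factor, fell by 0.24 ± 0.20 (adjusted p = 0.0406) after carbon ions and by 0.26 ± 0.20 (adjusted p = 0.0396) after X-rays. CCN1 fell at 3 h after X-rays by 0.50 ± 0.29 (adjusted p = 0.00725). A second probe of the AP-1 gene JUNB (111058) was lower at 3 h after carbon ions (-0.19, adjusted p = 0.0402), with -0.04 from the probe of highest mean. Known BMP targets thus moved in both directions at 3 h after carbon ions, with ID1 lower and MSX1 and MSX2 higher.

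Of the 3 E proteins that ID proteins bind, TCF12 fell at 3 h after carbon ions by 0.34 ± 0.11 (adjusted p = 0.00415), in 6 of 6 lines. TCF3 (0.02) and TCF4 (0.08) did not pass. After X-rays at 3 h they were at 0.06 (TCF3), -0.07 (TCF4) and -0.12 (TCF12), and none passed. In unirradiated cells TCF4 ran between -1.16 in 92-1 and 5.32 in C32TG.

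**Figure D5:**
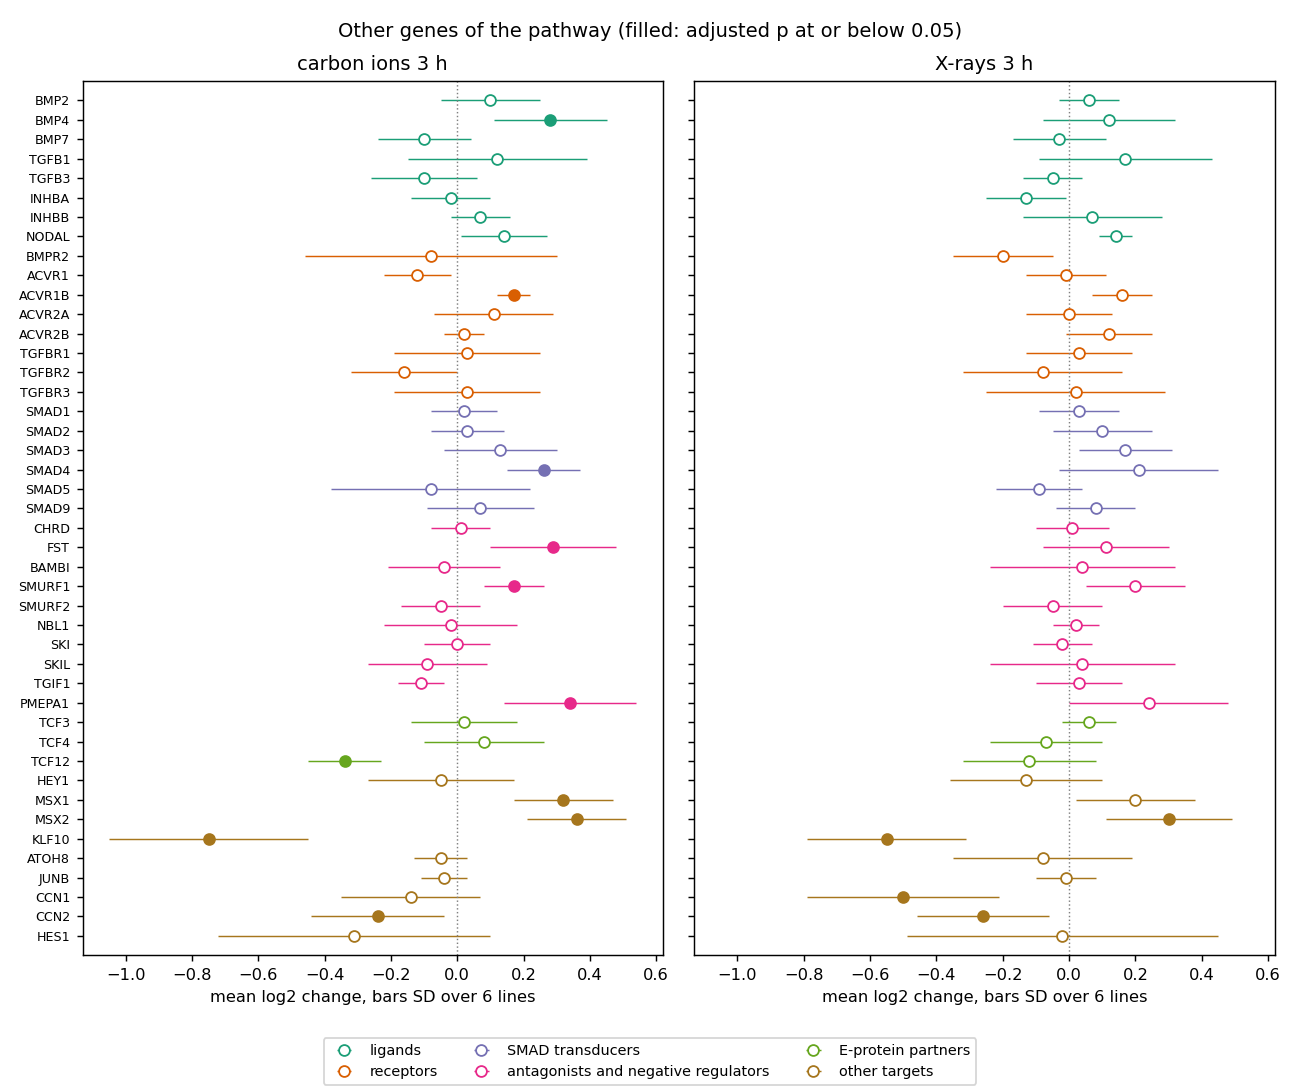
Mean log2 change over the 6 lines at 3 h after carbon ions and after X-rays for the 44 other pathway genes with a usable probe. Bars are the SD over lines, colours the lists, and filled points had an adjusted p of at most 0.05. KLF10 lies lowest at -0.75 and -0.55.

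The genes whose 24 changes were most like those of a member were found by Pearson correlation over 13655 other genes, as a description, since the 24 values share arrays and controls. For ID1 (probe 321038) they were CCNDBP1 (r = 0.769), SYNPO2 (0.758), RAB5B (0.755), HAT1 (0.752) and LSM12 (0.726). ID2 (476078) was followed by ELP4 (r = 0.835), CETN3 (0.823) and HMGN1 (0.791), and ID3 by IL4R (r = 0.856), TUBGCP2 (0.803) and XRCC1 (0.787). ID4 (81062) was followed by FRMD4B (r = 0.773), ADM5 (0.750) and GBP3 (0.724), SMAD6 by MRPL2 (r = 0.790), TYSND1 (0.756) and RPAP1 (0.748), and SMAD7 by ACCS (r = 0.805), STARD13 (0.753) and CDK5RAP3 (0.725). The other probe nearest to ID1 within the set was ID2 311023, at r = 0.529 with ID1 176003, and ID3 correlated with ID1 at 0.109 (176003) and 0.205 (321038).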

How the data were processed

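Per the labels' protocols, biotin-labelled RNA was read on CodeLink arrays of the human genome, with 1 colour each. The authors deposited 1 table of spot intensity on a linear scale. Spots under 1 or missing made up 50% to 51.8% of an array, so the scale appears to be relative to the array. The measured spots alone had array medians of 0.03 to 0.405 on the log2 scale. The software behind this scaling is not given in the sources used here. Missing spots numbered 1000 to 8034 per array. The number of arrays limits the precision.

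The deposited intensities were transformed to log2 and quantile normalized, with missing spots ranked lowest and then left missing, a handling chosen after seeing the files. Probes were kept with at most 10% missing values, a mean above the 40th percentile (-0.40) and a value in every group, which left 32063 of 54359. Gene symbols came from the annotation given with the arrays, and probes with several symbols were not used. Across lines, a comparison had 1 value for each line (mean of irradiated arrays minus mean of the unirradiated arrays of its line and beam), fitted with limma (version 3.58.1, R 4.3.3; lmFit, eBayes with a trend, two-sided), with p adjusted after Benjamini and Hochberg over the whole kept table, called at 0.05. The differences between beams and times used the same fit. Within a line, limma was run on its 18 arrays and the kept probes with all values there, so its p-values cover only the spread between arrays. The difference between lines was a moderated F with 20 degrees of freedom. The scripts were tested on simulated data.

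The members and the pathway lists were chosen with earlier results of these data known. Every member probe is reported. A pathway gene was read from its kept probe of highest mean, and the 8 called genes of largest change per comparison were named, with SMAD transducers and E proteins named whether called or not. Beyond that rule, ACVR1B, SMURF1 and CCN2 at 3 h after carbon ions, and second probes that passed (ACVR2B, JUNB), were named after their values were seen. Alternatives were median centring, the values as deposited, no filter on level, probes with every value, leaving out each replicate number or line, no variance trend, 1 fit on all arrays, a replicate block, and, added after seeing the data, missing spots left out of the ranking. Promoter sequences came from RefSeq (GRCh38.p14).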

Additional observations from a re-analysis of the deposited data

Results flagged for a closer look

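Of 40 sets of 6 line values, 3 held a line that stood apart from the other 5 by Dixon's criterion, which chance alone meets in about 1 set in 20. ID2 probe 476078 changed by 0.47 in C32TG at 1 h after carbon ions, and the next line was at 0.07. ID2 probe 150076 changed by 0.09 in C32TG at 3 h after carbon ions, and the next line was at -0.68. ID3 changed by -0.55 in Colo679 at 3 h after X-rays, and the next line was at 0.01.

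The change differed between lines, by the moderated F over all arrays, for 9 of the 10 member probes. The test sets the lines against the spread between the 3 arrays of a group, with no separate cultures stated. The adjusted p was 2.61e-19 and 5.63e-09 for ID1 (176003 and 321038), 1.53e-05, 3.02e-18 and 8.67e-11 for ID2 (150076, 311023 and 476078), and 0.000201 for ID3. It was 8.69e-05 and 0.0280 for ID4 (81062 and 110038) and 4.47e-05 for SMAD6.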

How the results depend on the processing

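No mean change of a member probe that passed in the main setting turned its direction under an alternative. Of the values of single probes under alternatives, 658 kept their side of the threshold, 57 lost a call and 10 gained one. The count of 2 calls at 1 h after carbon ions became 4 with the values as deposited, 4 with missing spots left out of the ranking, and 1 with no filter on level, with probes that had every value or without line C32TG or HMV-II (there SMAD7, with both ID1 calls lost). It became 0 without Colo679, 92-1 or HMV-I, and 1 without any replicate number (range 1 to 1). Of all probes, 10.7% were called there in the main setting, and 6.03%, 6.81% and 7.1% without those lines. Without a replicate number 6.63% to 8.75% were called, and without C32TG or HMV-II 11.4% and 7.85%. The shares were 11.9%, 10.9%, 6.77% and 12.9% in the processing settings named, in the order given. The 6 calls at 3 h after carbon ions became 3 with probes that had every value (5 of the 10 remained), 2 without Colo679, 2 without HMV-II and 3 without 92-1. Of all probes, 13.4% were called there in the main setting, 15.9% with every value, and 6.11%, 6.07% and 5.6% without those lines. The 4 calls at 3 h after X-rays became 2 with probes that had every value, 2 without MeWo, and 2 to 3 without a replicate number. For all probes the called share went from 7.13% to 8.4%, 3.64% and 4.3% to 6.43% in these settings. Those 4 calls became 3 with median centring, no filter on level, missing spots left out of the ranking or no variance trend. The called share of all probes was then 5.12%, 4.79%, 5.03% and 7.08%, in that order. The 4 calls for 3 h minus 1 h became 2 with median centring, 1 with probes that had every value and 2 without MeWo. For all probes that share went from 4.55% to 3.08%, 5.41% and 2.72%. Fitting all arrays at once, which leaves out the spread between lines, gave 6, 10, 4 and 6 calls (carbon ions 1 h and 3 h, X-rays 1 h and 3 h), of which 5, 10, 2 and 6 were lower, where 26.9%, 43.3%, 9.95% and 30.6% of all probes were called. With a replicate block in that fit they were 6, 10, 5 and 6, where 27.7%, 43.7%, 10.9% and 31.4% of all probes were called. Within lines the replicate block gave 13, 29, 6 and 13 pairs. Same-numbered arrays deviated together (r over 0.1) in 27 of the pairs (3 for each of 36 pairs of groups), with a median r of 0.0296 (-0.349 to 0.383), and an array correlated best with its own number in 49 of them. All 3 pairs passed 0.1 in HMV-II between 1 h and 3 h after X-rays (0.191, 0.110 and 0.252), but not with the unirradiated arrays of that beam, so the numbers were not taken to pair the samples. Of pairs within lines, 11, 29, 5 and 12 were called (carbon ions 1 h and 3 h, X-rays 1 h and 3 h). Probes with every value gave 18 and 7 at 3 h, of 30 pairs. Leaving out a replicate number gave 5 to 9, 14 to 26, 3 to 7 and 6 to 12, with the lowest without replicate 2 in each. The share of all pairs called under these within-line alternatives is not given, so nothing is read from their counts. Except where fewer probes or lines entered a fit, the cause was not tested. Signals below the level threshold are the least well measured: ID4 in HMV-I, ID4 110038 in MeWo after carbon ions, and ID2 150076 in MeWo and HMV-II at 3 h after carbon ions.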
